A study of Homo sapiens and Mus musculus with 26 samples.

Results

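Ribosome biogenesis factors are the proteins that make, trim and assemble ribosomes but are not part of the finished ribosome. Here they were the genes of the polysome expression table whose symbols belong to named families of such factors (UTP, NOP, RRP, NOL, EXOSC, RIOK and TSR numbers, IMP3 and IMP4, GNL2 and GNL3, and single genes such as FBL, DKC1, NCL, NPM1, PES1, BRIX1, PAK1IP1, LTV1, NOB1 and BMS1). The rule found 67 of the 8074 genes of the table and used no measured value. By role there were 23 small subunit processome factors, 7 core proteins of small nucleolar ribonucleoproteins, 15 large subunit assembly factors, 10 subunits of the RNA exosome, 8 late 40S maturation factors, the abundant nucleolar proteins NCL and NPM1, and 2 further symbol matches, NOL8 and NOL4L. NOL4L is not known as a ribosome biogenesis factor and is kept because the rule takes it. BOP1 and NOL12 were among 9 listed symbols that were not in the table. The 9 symbols also include older names of genes that are counted, CIRH1A for UTP4 and UTP11L for UTP11.

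The 12 libraries came from MHCC97H, a human hepatocellular carcinoma cell line, grown in DMEM. METTL1, the catalytic subunit of the enzyme that places 7-methylguanosine on transfer RNAs, was knocked down with a short hairpin labelled shMETTL1-2, and control cells are labelled NC. Total (input) mRNA and mRNA bound to polyribosomes were sequenced from both, with 3 repeats of each of the 4 groups. A single hairpin in 1 cell line was used in these libraries, and nothing in the labels tells whether the repeats were grown separately. The p-values therefore reflect how far these libraries differ from each other, which may be technical.

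Ribosome assembly begins in the nucleolus, where RNA polymerase I transcribes a long precursor of the ribosomal RNAs. The small subunit processome folds and cuts the part that becomes the small subunit, small nucleolar ribonucleoproteins guide chemical modification of the RNA, separate factors build the large subunit, and the RNA exosome trims and degrades the spacers. The last steps of small subunit maturation take place in the cytoplasm, and the whole programme is raised in many growing tumours, in which enlarged nucleoli are a classical sign.

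Expression was deposited as FPKM (fragments normalized to transcript length and library size), whose read depth is unknown, and the sum over the table was between 482334 and 821900 per library. METTL1 was at 47.94, 39.33 and 36.03 FPKM in control input and at 11.89, 18.34 and 15.34 in knockdown input, with no overlap. In polysome RNA METTL1 was at 45.27, 43.82 and 38.18 in control cells and at 8.29, 22.93 and 25.55 in knockdown cells. Repeat 1 stood apart from repeats 2 and 3 in every group: over the biogenesis genes, the standard deviation of the log2 difference between 2 control input libraries was 1.20 for repeats 1 and 2 and 0.115 for repeats 2 and 3. In control polysome RNA the same values were 0.454 and 0.0809. Of the hepatocyte markers looked for, HNF4A and APOH were in the table and ALB was not, while 3 of 4 epithelial markers, the keratins KRT8, KRT18 and KRT19, were present. Of the markers of fibroblasts (6), endothelium (4) and leukocytes (5), CD68 alone was in the table.

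In polysome RNA, the mRNAs of most biogenesis factors averaged lower in knockdown than in control cells. Of the 67 genes 45 were below 0 and 22 above, and the median difference was -0.27 on the log2(FPKM + 1) scale, against -0.03 over all 8074 genes. The median over the 67 genes was -0.39, -0.18 and -0.24 in repeats 1, 2 and 3, against 0.05, -0.09 and -0.09 over all genes. Together the 67 genes held 0.897%, 0.819% and 0.819% of the summed FPKM of the control polysome libraries and 0.729%, 0.740% and 0.730% of the knockdown ones, a lower share in every knockdown library. In 24 of the 67 genes (35.8%) every knockdown library was below every control library, against 26.5% of all genes, and in 10 (14.9%) every knockdown library was above, against 13.7%. Within the same repeat, knockdown was below control in all 3 repeats in 36 genes (53.7%), against 38.6% of all genes, and above it in 18 (26.9%), against 30.3%. FPKM is relative to the RNA of its own library, so a change in the total amount of polysome-bound RNA per cell, or in the mix of cells, cannot be told apart from these differences.

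Whether single genes passed a test depended on which libraries set the spread. In the limma fit over all 12 libraries, 0 of the 67 genes and 0% of all genes passed an adjusted p of 0.05, while 13 (19.4%) had an unadjusted p under 0.05, against 7.54% of all genes. The replicate block over 12 libraries gave 0 of the 67 genes and 0.0124% of all genes. In the limma fit of the 6 polysome libraries alone, 12 genes (17.9%) fell and 0 rose, against 12.7% and 1.09% of all genes. When that fit also took the repeat as a block, 28 fell (41.8%) and 11 rose (16.4%), against 28.0% and 14.1% of all genes. The 12 genes of the 6-library fit were NOL10, NOL11, UTP11, UTP15 and UTP20 of the small subunit processome, BRIX1, PAK1IP1 and RRP15 of the large subunit pathway, LTV1, RIOK2 and RIOK3 of late 40S maturation, and NCL. The count moved with the libraries used. It was 0 when repeats 2 and 3 of each group, the close pair, were averaged as 1 sample, and 0 without control polysome repeat 2, control polysome repeat 3 or knockdown polysome repeat 3. In each of these fits 0% of all genes were called as well. Without knockdown polysome repeat 2 the count was 9 (13.4%), against 7.23% of all genes. It was 7 (10.4%) without control polysome repeat 1, 28 (41.8%; 16 lower, 12 higher) without knockdown polysome repeat 1, and 50 (74.6%; 35 lower, 15 higher) without both. The shares of all genes called moved too, to 6.97%, 31.6% (23.4% lower, 8.15% higher) and 63% (40.2% lower, 22.8% higher) in the same 3 fits. Shifting all libraries to an equal median raised the median of all genes by 0.17. The 6-library fit then called 8 of the 67 genes (11.9%), 7 lower and 1 higher (IMP3), against 5.39% of all genes lower and 2.75% higher. With equal medians 35 of the 67 genes were below 0, with a median of -0.10 against 0.14 over all genes. Quantile normalization raised the median of all genes by 0.11 and left 41 of the 67 below 0. With it 8 genes (11.9%) were called, all lower, against 7.44% of all genes lower and 3.73% higher.

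**Figure D1:**
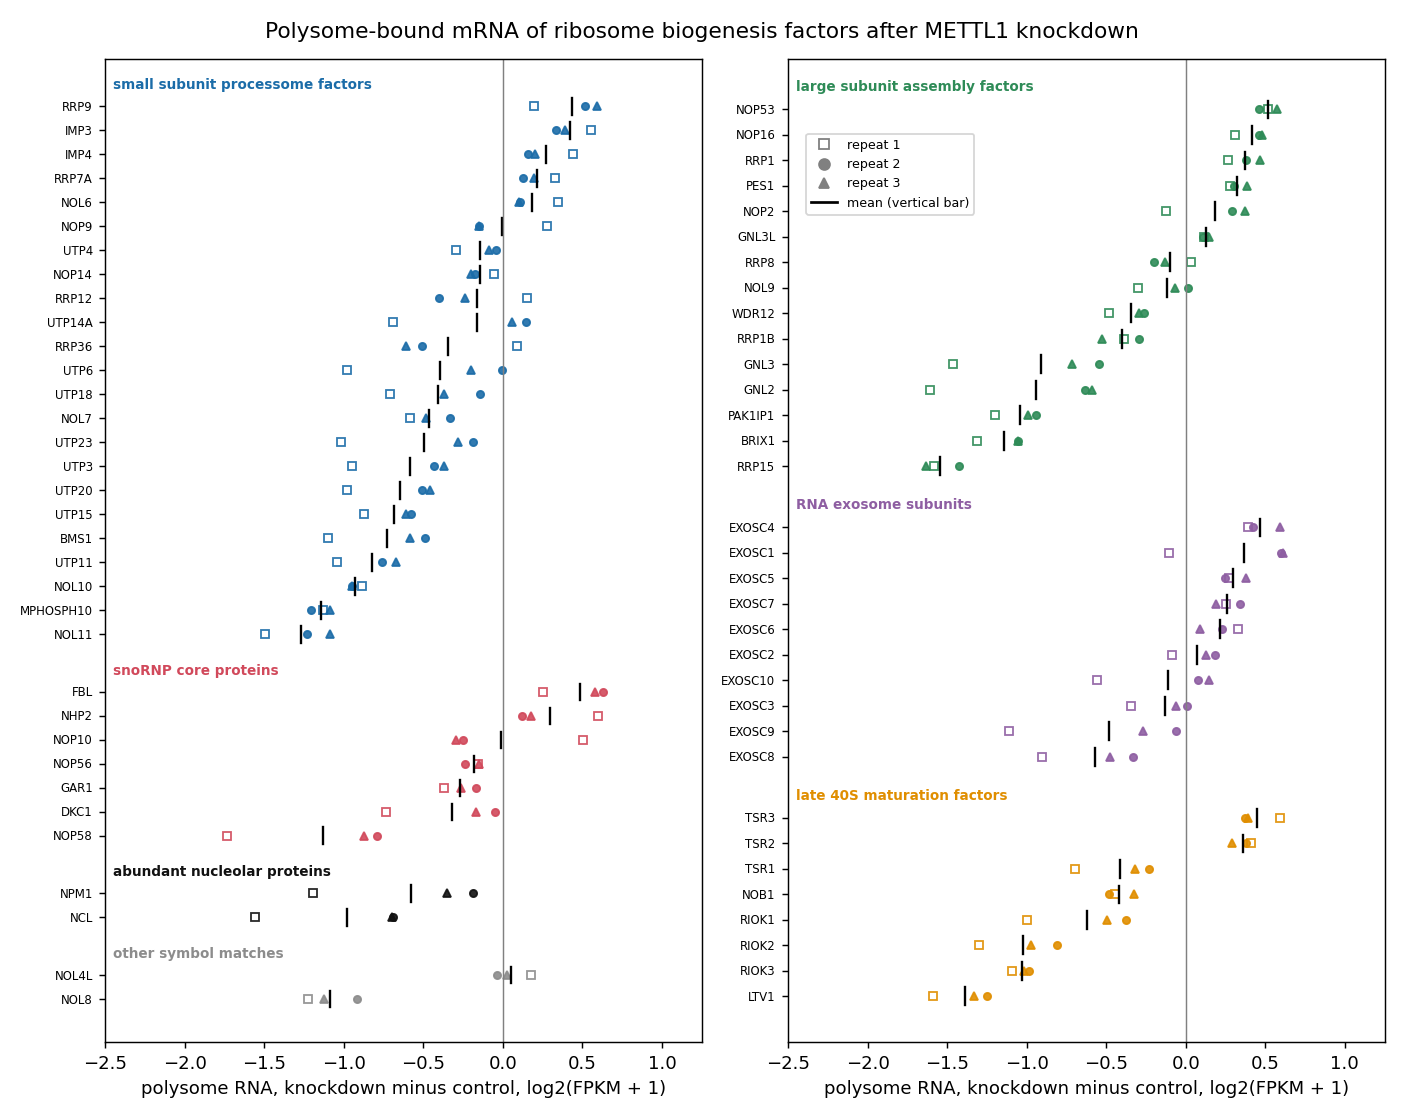
Knockdown minus control in polysome RNA for each of the 67 genes, on the log2(FPKM + 1) scale (x axis), grouped by role. Squares, circles and triangles are repeats 1, 2 and 3 and the black bar is their mean; 45 of the 67 means lie below 0, and the open squares of repeat 1 often lie further out than the other repeats.

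The small subunit processome, the largest role, had the most genes below 0. Its share below 0 was 78.3%, against 75% of late 40S maturation factors, 71.4% of small nucleolar ribonucleoprotein proteins and 100% of NCL and NPM1. The share was 60% in the large subunit factors, 50% in the further symbol matches and 40% in the exosome. Of the 23 processome genes 18 averaged lower (13 with equal library medians), with a median of -0.39. Without overlap 9 (39.1%) were lower and 4 (17.4%) higher, against 26.5% and 13.7% of all genes. NOL11, a component of the UTP-A subcomplex that also supports transcription of ribosomal DNA, was at 32.57, 28.33 and 25.36 FPKM in control polysome RNA and at 10.88, 11.47 and 11.41 in knockdown. All 3 knockdown libraries were below the lowest control library, and the log2 difference was -1.27 (limma, adjusted p = 0.00737 in the 6-library fit and 0.677 over 12 libraries). NOL10, a nucleolar protein of the same pathway, was at 9.84, 10.59 and 9.86 in control and at 4.86, 5.00 and 4.63 in knockdown. The groups did not overlap, the 3 repeats differed by nearly the same amount, and the log2 difference was -0.93 (limma, adjusted p = 0.00767 in the 6-library fit).

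UTP11, UTP15 and UTP20 are processome proteins that passed the same fit with smaller differences of -0.83, -0.69 and -0.65 (limma adjusted p 0.026, 0.0197 and 0.0396). UTP15 and UTP20 were near 5 FPKM in control polysome RNA, so these differences are between low levels. MPHOSPH10, which forms a complex with IMP3 and IMP4 on the U3 small nucleolar RNA, was at 13.33, 33.76 and 31.86 in control and at 5.54, 14.05 and 14.45 in knockdown. Repeat 1 of both groups was the lowest, so the groups overlapped although every repeat was lower by a similar ratio, and the log2 difference was -1.14 (limma, adjusted p = 0.145 in the 6-library fit and 0.00106 with the repeat block). BMS1, a GTPase of the processome with near-identical copies elsewhere in the genome that could share its reads, differed by -0.73 with no overlap (limma, adjusted p = 0.103 in the 6-library fit and 0.0075 with the block). The partners of MPHOSPH10 lay on the other side of 0. IMP3 was at 47.73, 50.38 and 46.46 in control and at 70.39, 63.62 and 61.17 in knockdown, a log2 difference of 0.42 with no overlap (limma, adjusted p = 0.0569 in the 6-library fit and 0.0131 with the block). IMP4, at 0.27, RRP9, which binds U3, at 0.43, and RRP7A, at 0.22, whose reads a near-identical copy could share, were also higher in all 3 knockdown libraries than in all 3 control libraries, and of these RRP9 passed with the block (limma, adjusted p = 0.0194).

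The 7 core proteins of small nucleolar ribonucleoproteins had members on both sides of 0, with a median of -0.18 and 5 of 7 below 0 (-0.01 and 4 of 7 with equal library medians). The median over all genes was -0.03, and 0.14 with equal library medians. The proteins of the box C/D particle, which guides ribose methylation, went in different directions. NOP58 was at 44.98, 66.03 and 67.44 FPKM in control polysome RNA and at 12.83, 37.67 and 36.27 in knockdown. The groups did not overlap, with the largest gap in repeat 1, and the log2 difference was -1.13 (limma, adjusted p = 0.116 in the 6-library fit and 0.00373 with the block). FBL, the fibrillarin methyltransferase of the same particle, was at 595.43, 679.85 and 639.65 in control and at 710.54, 1052.81 and 955.01 in knockdown. FBL was therefore higher in all 3 knockdown libraries, by 0.49 (limma, adjusted p = 0.149 in the 6-library fit and 0.0116 with the block). NOP56, the partner of NOP58, differed by -0.18 and its groups overlapped. In the box H/ACA particle, which guides pseudouridylation, the pseudouridine synthase DKC1 differed by -0.32 with overlapping groups (limma, adjusted p = 0.457 in the 6-library fit). GAR1 at -0.27 and NHP2 at 0.30 did not overlap between groups but went in opposite directions, and NOP10 was at -0.01.

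Among the 15 large subunit assembly factors the median was -0.12, with 9 below 0, against a median of -0.03 over all genes. It turned to 0.06 with equal library medians and 0.09 with quantile normalization, against 0.14 and 0.08 over all genes. Here the range was the widest of the roles, from -1.55 to 0.52. RRP15, a factor of early large subunit precursors (chromosome 1, positions 218285293 to 218337983 of GRCh38.p14), was at 16.81, 13.96 and 17.01 in control polysome RNA and at 4.94, 4.58 and 4.81 in knockdown. Its control mean was 3.33 times its knockdown mean, with tight libraries in both groups, and it had the largest difference of the 67 genes (limma, log2 -1.55, adjusted p = 0.00737 in the 6-library fit and 0.602 over 12 libraries). BRIX1, which acts early in large subunit assembly (chromosome 5, positions 34915711 to 34925996), was at 52.77, 50.50 and 50.25 in control and at 20.68, 23.74 and 23.67 in knockdown. The knockdown values lay within a narrow band below all control values, a log2 difference of -1.14 (limma, adjusted p = 0.00737 in the 6-library fit).

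PAK1IP1, a nucleolar WD-repeat protein of large subunit assembly (chromosome 6, positions 10690865 to 10709782), was at 30.13, 30.54 and 28.82 in control and at 12.58, 15.41 and 13.99 in knockdown. Its 3 control libraries were nearly equal and 2.13 times the knockdown mean, and it had the smallest adjusted p of the 67 genes in the fit over 12 libraries, which it did not pass (limma, log2 -1.04, adjusted p = 0.549, and 0.0076 in the 6-library fit). The GTPases GNL2 and GNL3, the latter known as nucleostemin, differed by -0.94 and -0.91 (limma adjusted p 0.195 and 0.192 in the 6-library fit, 0.00982 and 0.00657 with the block). In both, repeat 1 differed more than repeats 2 and 3. PES1 and WDR12, which act together with BOP1 as the PeBoW complex, lay on opposite sides of 0. PES1 was at 85.10, 94.73 and 98.31 in control and at 103.21, 116.92 and 128.65 in knockdown, higher without overlap by 0.32 (limma, adjusted p = 0.164 in the 6-library fit and 0.0272 with the block). WDR12 was at 15.77, 5.14 and 4.80 in control and at 11, 4.12 and 3.74 in knockdown. The groups overlapped because repeat 1 was high in both, and the sign of the mean difference of -0.35 changed to 0.15 without control polysome repeat 1 (limma, adjusted p = 0.691 in the 6-library fit and 0.044 with the block). NOP53, NOP16 and RRP1 were the other genes of this role that rose with the block, by 0.52, 0.42 and 0.37 (limma adjusted p 0.00474, 0.0116 and 0.0205).

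Among the roles the RNA exosome alone had a median above 0, at 0.14 with 6 of 10 subunits above 0, but the median was -0.04 once a trend on gene span was removed. No exosome subunit was lower without overlap, and EXOSC5, a ring subunit, was higher without overlap: 61.33, 64.02 and 62.44 in control against 74.29, 76.20 and 81.42 in knockdown. Its difference of 0.30 did not pass the 6-library fit and passed with the block (limma, adjusted p = 0.117 and 0.038). The ring subunits EXOSC8 and EXOSC9 were at -0.57 and -0.48 and EXOSC7 at 0.26, and 0 of these 3 passed the 6-library fit (limma adjusted p 0.343, 0.43 and 0.327). With the block EXOSC8 fell and EXOSC4, another ring subunit at 0.47, rose (limma, adjusted p = 0.0153 and 0.0076). Whether the exosome differed from the other roles was not tested.

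The late 40S maturation factors had the lowest median of the roles with more than 2 genes, -0.52, and the groups of all 8 were apart, 6 lower and 2 higher, where 26.5% and 13.7% of all genes were. LTV1, which joins the small subunit precursor in the nucleolus and must leave it in the cytoplasm (chromosome 6, positions 143843338 to 143863812), was at 24.51, 31.63 and 31.97 in control polysome RNA and at 7.46, 12.75 and 12.09 in knockdown. Every knockdown library was far below every control library, with a log2 difference of -1.39 (limma, adjusted p = 0.0127 in the 6-library fit and 0.727 over 12 libraries). The atypical kinase RIOK3 was at 15.28, 11.35 and 11.24 in control and at 6.64, 5.25 and 5.05 in knockdown, a difference of -1.03 (limma, adjusted p = 0.0136 in the 6-library fit). RIOK2, a kinase of the last cytoplasmic steps, was at 6.15, 7.98 and 6.95 in control and at 1.91, 4.13 and 3.05 in knockdown. Its difference was also -1.03 (limma, adjusted p = 0.0282), between low levels. With only genes of a mean FPKM of at least 5, the 6-library fit called 9 biogenesis genes (14.3%), against 11.7% of all genes kept. RIOK2, UTP15 and UTP20 had a mean below 5 FPKM over the 12 libraries. They were therefore removed before that fit and not tested in it. The third kinase, RIOK1, differed by -0.62 with no overlap and passed with the block (limma, adjusted p = 0.0138). The endonuclease NOB1, which makes the final cut of 18S ribosomal RNA, was at 78.59, 70.66 and 67.20 in control and at 57.36, 50.23 and 53.32 in knockdown. Its groups did not overlap, and the difference of -0.42 had an adjusted p of 0.0671 in the 6-library limma fit and 0.0118 with the block. TSR1 was lower by a similar amount, -0.41, without overlap (limma, adjusted p = 0.141 in the 6-library fit and 0.0307 with the block). TSR2, the chaperone of a small subunit protein, and TSR3, which modifies 18S ribosomal RNA, were higher without overlap by 0.36 and 0.45 (limma adjusted p 0.118 and 0.0727 in the 6-library fit, 0.0231 and 0.00963 with the block).

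NCL and NPM1 encode nucleolin and nucleophosmin, 2 of the most abundant nucleolar proteins. NCL (chromosome 2, positions 231453531 to 231464484) was at 259.81, 212.01 and 226.46 FPKM in control polysome RNA and at 87.58, 131.09 and 139.10 in knockdown. All knockdown libraries were below all control libraries and repeat 1 differed most, with a log2 difference of -0.98 (limma, adjusted p = 0.0258 in the 6-library fit and 0.604 over 12 libraries). NPM1, which has near-identical copies in the genome that could share its reads, was at 756.19, 815.68 and 838.06 in control and at 330.51, 715.28 and 657.42 in knockdown. The groups did not overlap, but the difference of -0.58 came mostly from repeat 1 (limma, adjusted p = 0.246 in the 6-library fit and 0.0427 with the block). Of the 2 further symbol matches, NOL8, a nucleolar RNA-binding protein, was at 6.49, 11.44 and 11.42 in control and at 2.20, 5.59 and 4.69 in knockdown, lower without overlap by 1.09 (log2 -1.09, limma, adjusted p = 0.0704 in the 6-library fit and 0.00121 with the block). NOL4L was at 0.05 with overlapping groups.

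**Figure D2:**
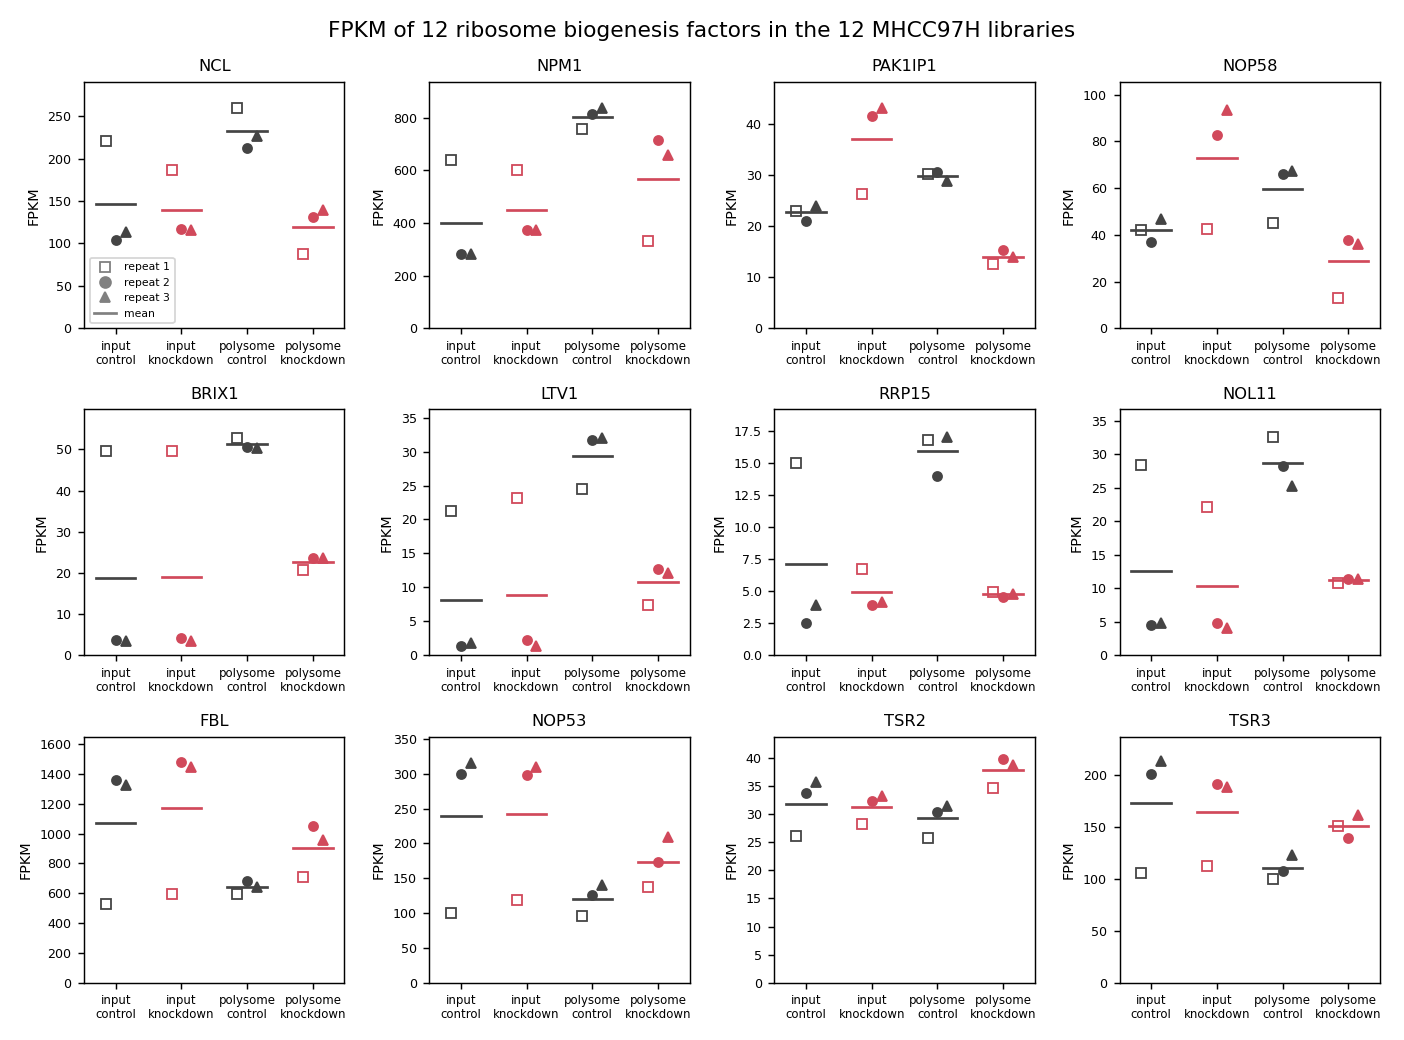
FPKM of 12 of the genes in all 12 libraries (y axis, FPKM from 0), by group; squares, circles and triangles are repeats 1, 2 and 3 and the line is the group mean. The polysome values of NCL, PAK1IP1, BRIX1, LTV1, RRP15 and NOL11 are lower in all knockdown libraries, FBL, TSR2 and TSR3 are higher, and in input RNA BRIX1, LTV1 and NOL11 are high in repeat 1 alone.

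Input RNA showed no such shift. In input RNA 38 of the 67 genes were above 0 and 29 below, with a median of 0.04, against -0.03 over all genes, and 0 passed limma over 12 libraries (2 genes had an unadjusted p under 0.05, or 2.99%, against 1.66% of all genes). The block gave 0 of the 67 and 0.0124% of all genes here as well. PAK1IP1, UTP23 and EXOSC9 were higher in every knockdown than in every control input library, 4.48% of the 67 genes against 1.91% of all genes, and EXOSC7 and RRP12 were lower, 2.99% against 2.42%. A few genes stood out in repeats 2 and 3. PAK1IP1 was at 23.04, 21.06 and 23.97 in control input and at 26.26, 41.62 and 43.09 in knockdown input. UTP23, a processome protein that binds a small nucleolar RNA, was at 12.07, 6.83 and 7.39 in control and at 13.73, 15.03 and 15.65 in knockdown. NOP58 was at 42.09, 36.86 and 46.65 in control and at 42.67, 82.86 and 93.43 in knockdown.

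DKC1 and RIOK1 had the same layout. DKC1 was at 75.03, 80.53 and 92.16 in control input against 65.53, 160.87 and 175.36 in knockdown input. RIOK1 was at 10.72, 16.78 and 17.26 against 10.82, 31.41 and 31.66. In these 5 genes repeats 2 and 3 were near 1 log2 unit higher in knockdown input and repeat 1 lay between -0.19 and 0.18. The mean differences were 0.65 for PAK1IP1, 0.73 for UTP23, 0.72 for NOP58, 0.57 for DKC1 and 0.57 for RIOK1, and all had an adjusted p of 1 in limma over 12 libraries. NOB1 lay at the other end, at -0.68 in input RNA.

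The change of polysome RNA relative to input RNA, called translation efficiency here, was computed as the knockdown difference in polysome RNA minus that in input RNA and tested as an interaction in limma over 12 libraries. It shares its polysome libraries with the comparison above. The median over the 67 genes was -0.27, against 0.04 over all genes, and -0.39, -0.21 and -0.30 in repeats 1, 2 and 3. In limma 0 of the 67 genes passed, 10 (14.9%) had an unadjusted p under 0.05 against 4.16% of all genes, and in 11 (16.4%) the 3 knockdown ratios were all below the 3 control ratios, against 6.08% of all genes. In 3 genes (4.48%), TSR2, EXOSC7 and IMP3, they were all above, against 10.6%. PAK1IP1 had the smallest p, with differences of -1.38, -1.89 and -1.81 in the 3 repeats and a mean of -1.69 (SE 0.30, limma, adjusted p = 0.841). It was the 1 gene of the 67 to pass when knockdown input repeat 1 was left out (limma, adjusted p = 0.0493). NOP58 was at -1.75, -1.94 and -1.86, a mean of -1.85 (SE 0.58). The 3 repeats of NOP58 were closer to each other than either its polysome or its input differences were.

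UTP23 was at -1.23, NOL8 at -1.53 and MPHOSPH10 at -1.61, each with all 3 repeats below -1 (limma, adjusted p = 0.977 for each). In PAK1IP1 and NOP58 the value joins a lower polysome level to a higher input level, whereas in NCL, with an input difference of -0.01 and a translation efficiency difference of -0.97, nearly all of it lay in polysome RNA. NOB1 was lower in both kinds of RNA and its translation efficiency difference was 0.26. The exosome subunits had a median translation efficiency difference of 0.00 (5 above, 5 below), with single values from -0.93 to 0.52.

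**Figure D3:**
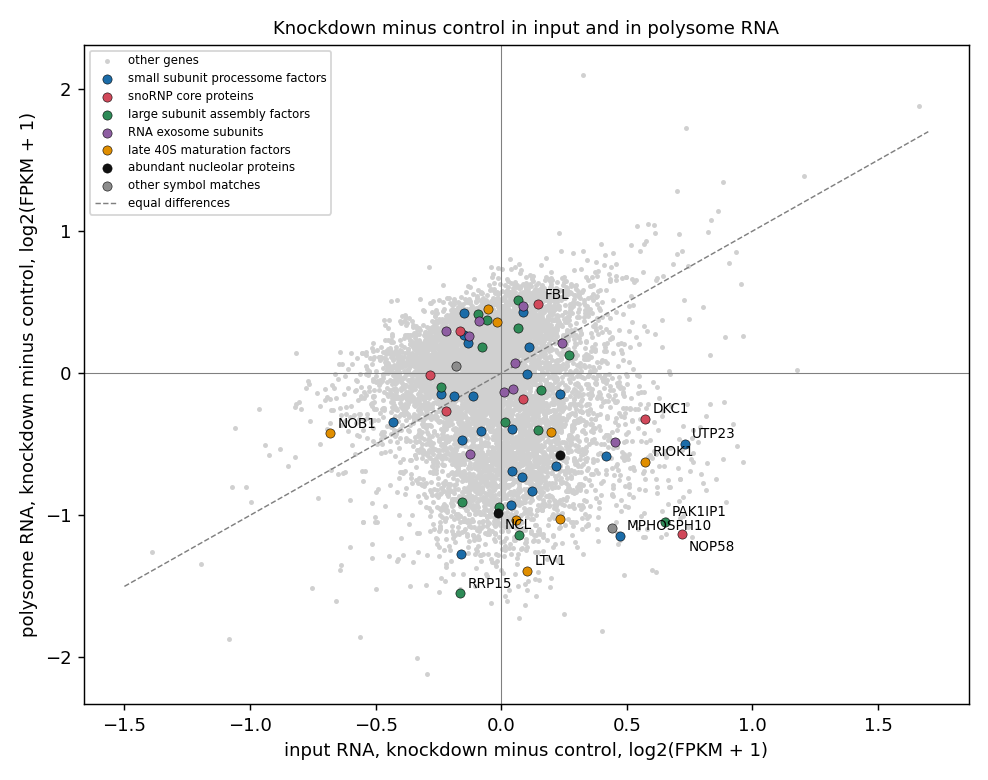
Knockdown minus control in input RNA (x axis) and in polysome RNA (y axis), both as differences of log2(FPKM + 1); coloured points are the 67 genes by role, grey points the other genes of the table, and the dashed line marks equal differences. PAK1IP1, NOP58, MPHOSPH10, UTP23, DKC1 and RIOK1 lie to the lower right, RRP15, LTV1 and NCL straight below the origin.

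In control cells, biogenesis factor mRNAs were slightly higher in polysome than in input RNA, by a median of 0.49 against 0.39 over all genes, and 0 passed limma over 12 libraries. In 20 of the 67 genes (29.9%) all polysome libraries were above all input libraries, against 18.7% of all genes, and in 2 (2.99%) they were below, against 3.01%. The repeats disagreed in size: the median was 0.12 in repeat 1 and 0.72 and 0.66 in repeats 2 and 3. LTV1 had the largest mean difference, 2.50, and was at 21.27, 1.44 and 1.77 FPKM in control input against 24.51, 31.63 and 31.97 in control polysome RNA. Its polysome to input difference was 0.20 in repeat 1 and 3.74 and 3.57 in repeats 2 and 3. BRIX1 had the same layout, at 0.09, 3.46 and 3.53, as did NOL7, a nucleolar protein of the processome, and NOL11, with means of 1.61 and 1.59. The lowest means were those of EXOSC4 at -1.07, RRP9 at -0.92, NOP53 at -0.82 and FBL at -0.62, in each of which repeat 1 lay within 0.20 of 0. In knockdown cells the median of the 67 genes was -0.01, against 0.33 over all genes, with 4 genes (5.97%) higher and 6 (8.96%) lower without overlap, against 8.53% and 2.75% of all genes.

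Gene features moved with the polysome difference both among the biogenesis genes and over all genes. The genomic span of the gene (from RefSeq, known for all 67 genes and 99.9% of the table) had a Spearman correlation of -0.36 with the polysome difference over the 67 genes and -0.45 over 8068 genes. These are descriptions across genes that share the same libraries. The 67 genes were shorter than most, with a median span of 15717 bases against 26431. Of the 18 biogenesis genes spanning up to 10 kb, 2 (11.1%) were lower without overlap, against 7.10% of all genes of that span. Of the 21 spanning 10 to 20 kb, 8 (38.1%) were lower without overlap, against 16.5% of all genes of that span, and of the 20 spanning 20 to 40 kb 10 (50%) were, against 27.0%. Above 40 kb the shares were 4 of 8 (50%) and 43.5%. When a trend on span was removed from each library, the 6-library limma fit called 13 genes (19.4%) lower, 11 of them among the 12 named above, and 8.94% of all genes.

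**Figure D4:**
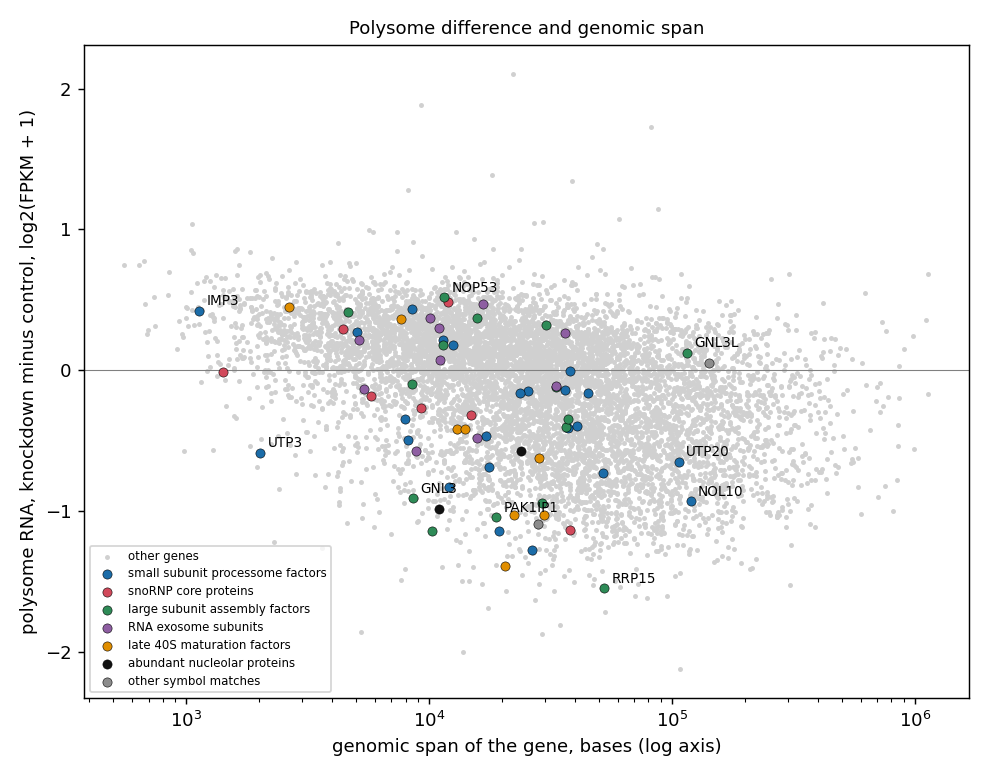
Genomic span of each gene in bases (x axis, log scale) and knockdown minus control in polysome RNA as a difference of log2(FPKM + 1) (y axis); coloured points are the 67 genes by role and grey points the other genes. The grey cloud slopes downward with span, and many biogenesis genes of 10 to 40 kb, among them PAK1IP1, lie in its lower part.

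A second feature that moved with the result was the gap between control input libraries. The difference between control input repeats 2 and 3 and repeat 1, which involves no knockdown library and no polysome library, had a Spearman correlation of 0.61 with the polysome difference over the 67 genes and 0.68 over all genes. BRIX1, LTV1 and NOL11, which were lower in knockdown polysome RNA, were also among the genes that were much lower in input repeats 2 and 3, and EXOSC4 and FBL were high on both. PAK1IP1 and NOP58 lay near 0 on the input gap while being more than 1 log2 unit lower in knockdown polysome RNA. The part of this gap in the knockdown difference was not tested.

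**Figure D5:**
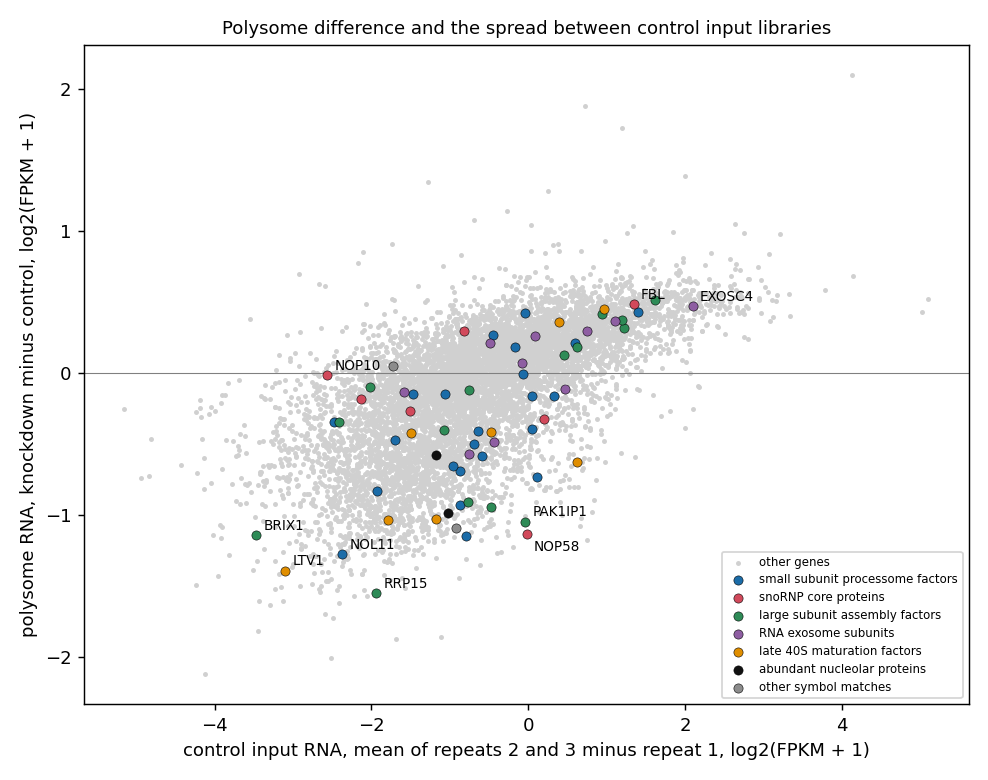
Difference between control input libraries, the mean of repeats 2 and 3 minus repeat 1 (x axis), and knockdown minus control in polysome RNA (y axis), both as differences of log2(FPKM + 1); coloured points are the 67 genes by role and grey points the other genes. Both clouds rise from lower left (BRIX1, LTV1) to upper right (EXOSC4, FBL), and PAK1IP1 and NOP58 lie below the cloud near 0 on the x axis.

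Other genes of the pathway, from lists of factors outside the symbol rule, were counted in the same way. Of 98 such genes in the table, 41 (41.8%) were lower and 12 (12.2%) higher without overlap in knockdown polysome RNA, the median was -0.19, and 14 (14.3%) fell and 0 rose in the 6-library limma fit. The shares over all genes were 26.5% and 13.7% without overlap and 12.7% and 1.09% in the fit, so the share that fell was close to that of all genes. With the repeat block 44 (44.9%) fell and 14 (14.3%) rose, against 28.0% and 14.1% of all genes. Among 28 other 40S genes 3 (10.7%, below the 12.7% of all genes) fell, including DDX10, a processome helicase (log2 -1.03, limma, adjusted p = 0.0338), while KRR1 was at -0.82 (limma, adjusted p = 0.0769 and 0.0084 with the block). Among 41 other 60S genes 6 (14.6%) fell, including DDX21, a nucleolar helicase (log2 -0.83, limma, adjusted p = 0.0404), while CEBPZ was at -1.42 (limma, adjusted p = 0.0719 and 0.0013 with the block). Of 12 RNA polymerase I genes 2 (16.7%) fell, including TAF1D of the selectivity factor, at 17.65, 19.51 and 18.80 FPKM in control and 4.62, 7.46 and 7.75 in knockdown (log2 -1.40, limma, adjusted p = 0.00987), and TAF1C of the same factor was at 0.32. Of the 11 genes listed as assembly and exosome cofactors 3 (27.3%) fell. These included XRN2, an exonuclease that is on the list but is not itself an exosome cofactor. XRN2 was at 59.38, 61.38 and 61.03 in control and 30.07, 25.08 and 25.19 in knockdown (log2 -1.15, limma, adjusted p = 0.00737). The exosome helicase MTREX was at -1.14 (limma, adjusted p = 0.0659 and 0.0027 with the block).

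MYC, the transcription factor best known for driving this programme, and 5 genes of its dimer network had 0 calls in the 6-library limma fit, with the repressive partners MXD3 and MXD4 at 0.53 and 0.40 and overlapping groups. With the block 1 of the 6, MXD3, rose (limma, adjusted p = 0.0092). MYC itself, named after its values were seen, was at 78.33, 3.60 and 3.24 in control input, at 75.91, 50.98 and 48.40 in control polysome and at 77.88, 28.38 and 31.50 in knockdown polysome RNA. Its groups overlapped through repeat 1, which was the high repeat in all of them. The mean knockdown difference of MYC was -0.46 in polysome RNA and -0.48 in input RNA, each the lowest of the 6 genes. Its translation efficiency difference was 0.02.

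The promoters of biogenesis genes are known for the E-box CACGTG, the site bound by MYC with its partner MAX. It was looked for in the 250 bases upstream of the start used by the promoter entry of each gene (GRCh38.p14). For some genes, such as PAK1IP1, PES1, NOP9 and NPM1, that start lay inside the gene. The bases upstream of the outer end of these genes were not searched. This motif reads the same on both strands. Of the 67 genes 59 matched a promoter entry, and 10 of them (16.9%) held the motif, against 638 of 6757 genes of the table (9.44%). By role it was found in 6 of 19 small subunit processome genes and in 0 of 14 large subunit genes. The stretches of 4 genes, 2 lower and 2 higher in knockdown polysome RNA, are shown because they carry the same motif while their mRNAs lay on opposite sides of 0. Each is written 5′ to 3′ on the strand of the gene with the E-box in capitals.
NOL8, minus strand, chr9:92325351-92325381: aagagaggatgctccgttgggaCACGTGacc
UTP20, plus strand, chr12:101280073-101280104: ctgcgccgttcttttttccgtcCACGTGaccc
TSR3, minus strand, chr16:1351897-1351946: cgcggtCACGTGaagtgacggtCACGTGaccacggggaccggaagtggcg
EXOSC5, minus strand, chr19:41397421-41397470: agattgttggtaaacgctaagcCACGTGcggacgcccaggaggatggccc

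NOL8 and UTP20 differed by -1.09 and -0.65 in polysome RNA and TSR3 and EXOSC5 by 0.45 and 0.30. Over the 10 genes with the motif the median polysome difference was -0.15, with 7 below 0, and over the 49 without it -0.27, with 32 below 0. The ranges of both sets were wide, from -1.09 to 0.45 and from -1.55 to 0.52.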

How the data were processed

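Per the deposited table, the authors gave FPKM values of 12 MHCC97H libraries (4 groups of 3 repeats) for 8074 genes, each at 1 FPKM or more in every library. The submitters' processing notes name Bowtie2, HTSeq and GRCh38 with no role or version, and the labels' protocol names a stranded mRNA kit. The header calls the polysome columns treated, and these were matched to the polysome samples because the others are marked as input. The small RNA (TRAC-Seq) libraries of the series hold no mRNA values and were not used here.

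FPKM was converted to log2(FPKM + 1) and tested with limma 3.58.1 (R 4.3.3), with group means over all 12 libraries, an intensity trend and two-sided Benjamini-Hochberg adjustment over all 8074 genes at 0.05. The fit of the 6 libraries of a comparison was an alternative, as were a pseudocount of 0.1, a mean FPKM of at least 5, quantile normalization, equal medians, removal of a span trend, the repeat block and leaving out libraries. The requirement of 1 FPKM in 3 libraries removed 0 genes. Differences are on the log2(FPKM + 1) scale, which understates changes of low genes. No overlap means that all 3 libraries of 1 group lie beyond all 3 of the other. The fitting code was run on simulated data with known differences as a check of the code alone. Repeat numbers were taken to pair the libraries on the correlation of same-numbered deviations. It was at least 0.42 in every pair (0.67 or more between knockdown and control). Repeats 2 and 3 crossed gave 0.40 to 0.93, so these values cannot tell whether repeats 2 and 3 are paired by number. Calls with the repeat block rest on this pairing and count the close repeats 2 and 3 as separate samples.

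Members, roles and lists were chosen with earlier results of these data known. Genes were named by smallest p over 12 libraries within each role (4 for roles of 8 or more genes, 3 for 4 to 7, all for smaller ones), plus NCL, NPM1, FBL, DKC1, PES1, WDR12, NOB1 and PAK1IP1, by the 5 smallest p in input RNA and translation efficiency, the 4 highest and lowest polysome to input differences, and the 2 smallest p per pathway list. The genes named beyond this, such as UTP11, UTP15, NOL11, BRIX1 and LTV1 in the polysome comparison, the other genes without overlap and the 4 promoters, were chosen after their values were seen.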

Additional observations from a re-analysis of the deposited data

Results flagged for a closer look

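In 12 of the 67 genes all 3 repeats of the knockdown difference had opposite signs in polysome and input RNA. In 9 of them (13.4%, against 5.46% of all genes) the polysome difference was below 0 and the input difference above 0. The difference of the 2 (log2, polysome minus input) was -1.85 for NOP58, -1.69 for PAK1IP1, -1.61 for MPHOSPH10, -1.26 for RIOK2, -1.23 for UTP23, -1.20 for RIOK1, -1.001 for UTP3, -0.93 for EXOSC9 and -0.81 for BMS1. In 3 genes (4.48%, against 3.88% of all genes) the layout was the opposite, with values of 0.43 for RRP1, 0.39 for EXOSC7 and 0.35 for RRP7A. Several single differences were small, such as those of BMS1 and RRP1 in input RNA. The interaction test did not pass for any of the 12 (limma, adjusted p = 0.841 for PAK1IP1 and 0.977 for the other 11).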

How the results depend on the processing

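With 3 libraries a group, unknown depth and repeats 2 and 3 much closer to each other than to repeat 1, counts of called genes move with the libraries used. Over 12 libraries the replicate block left 0 of the 67 genes called in every comparison. In polysome RNA the count was 12 in the 6-library fit and 39 in that fit with the replicate block. With repeats 2 and 3 averaged, the 6-library fit without the block called 0 of the 67 genes and 0% of all genes. With repeat 1 left out over all groups, limma called 52 genes in polysome RNA (17 higher, 35 lower), 39 in input RNA (22 higher), 54 in translation efficiency (21 higher), 62 in polysome against input RNA in control cells (45 higher) and 56 in knockdown cells (34 higher), and 50 in the 6-library polysome fit; these rest on the close pair of repeats 2 and 3, and the same fits called 64.5%, 50.7%, 67%, 88.1%, 86.3% and 63% of all genes. Leaving out 1 library at a time gave 0 to 28 calls in the 6-library fit (28, or 41.8%, without knockdown polysome repeat 1, against 31.6% of all genes). It gave 0 to 1 in translation efficiency, 0 to 40 in polysome against input RNA in control cells (40, or 59.7%, without control input repeat 1, against 48.9% of all genes) and 0 to 16 in knockdown cells (16, or 23.9%, without knockdown input repeat 1, against 24.5% of all genes). The polysome median was -0.10 with equal medians, against 0.14 over all genes. The input median ran from -0.066 (without knockdown input repeat 1) to 0.33 (without control input repeat 1), against -0.27 and 0.19 over all genes. It was -0.02 without control input repeat 3, against -0.14 over all genes. The translation efficiency median was -0.14 at a mean FPKM of at least 5, -0.14 with quantile normalization and -0.13 with equal medians. Over all genes it was 0.097, 0.12 and 0.19 in these settings. Without 1 library it ran from -0.58 (control input repeat 1) to -0.11 (control input repeat 3), against -0.24 and 0.11 over all genes. NOL4L turned to -0.00642 with repeat 1 left out and ran from -0.070 (without knockdown polysome repeat 1) to 0.14, MXD4 ran from -0.063 (also without it) to 0.70, and WDR12 from -0.77 to 0.15 (without control polysome repeat 1). The cause of these changes was not tested.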
